A study of Mus musculus with 4 samples.

Results

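The genes described here are 10 regulators and effectors of fat storage, taken by symbol from the deposited table of 54532 genes. They are the transcription factor genes Pparg, Cebpa, Cebpb and Cebpd and the lipid handling genes Fabp4, Lpl, Plin2, Plin4, Pnpla2 and G0s2. All 10 were found, and all 10 were among the 12176 genes tested, those whose mean reached 1 FPKM. FPKM relates a gene's reads to the length of its exons and to the size of its library, which allows levels to be set side by side between genes.

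Total RNA was sequenced from mouse cells labelled MSCs, mesenchymal stromal cells of the bone marrow, from the F1 hybrid strain CB6F1. The cells were released from unfractionated marrow by digestion and grown in high-glucose DMEM with FBS. The 2 R libraries came from cells exposed in culture to a compound named only as R in the titles, at 0.5 µM (the label reads "um"). The 2 vehicle libraries came from cells exposed to its solvent, DMSO. All 4 titles carry the term aGVHD, which the labels do not explain, and the age of the mice is not given in the sources used here. The labels do not say whether replicates are separate mice or cultures. The p-values therefore cover the spread among these libraries alone, and this may be technical.

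Marrow stromal cells can form bone, cartilage and fat. In the textbook order of fat cell formation, C/EBP beta and delta act early and help to switch on PPAR gamma and C/EBP alpha, which maintain each other and the genes of the mature fat cell. Lipoprotein lipase then releases fatty acids from lipoproteins, FABP4 carries them in the cell, perilipins coat the lipid droplet, and ATGL, the product of Pnpla2, begins to break stored triglyceride down. Macrophages also take up and store lipid and are known to express several of these genes, among them Lpl, Plin2, Fabp4 and Pparg.

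The libraries corresponded to 16534440 to 18085183 recovered reads. Macrophage transcripts were abundant in all of them: 23 of 23 macrophage markers were tested, and all 23 had log2 fold changes below 0 in R, 4 of them called. Their summed level was 13384 and 17386 FPKM in R and 22806 and 25503 FPKM in vehicle, most of it from Lyz2 (lysozyme), at 7061 to 14569 FPKM, and C1qb (complement C1q), at 1308 to 2538 FPKM. The 16 stromal markers summed to 3139 and 3195 FPKM in R and to 2497 and 2550 FPKM in vehicle, led by the matrix genes Sparc and Col1a1 (525.5 to 991.6 FPKM), with Lepr and Thy1 below 1 FPKM in each library. These sums rest largely on Sparc, Col1a1 and Col1a2, with R means of 928, 823 and 424 FPKM against 702, 529 and 287 in vehicle. Cxcl12 had means of 488 FPKM in R and 505 in vehicle. Of the 14 stromal markers tested, 11 had log2 fold changes above 0 and 3 below. Neutrophil, T and NK, B and erythroid markers summed to at most 2.37 FPKM per library in each list. R replicate 2 differed from R replicate 1 with gene length. The median R 2 to R 1 ratio was 0.775 for 2458 tested genes with exons under 2 kb and 1.16 for 4733 genes of 5 kb and over. Between the vehicle libraries these ratios were 0.922 and 1.05. In bulk RNA, fewer cells of a type and less RNA per cell cannot be told apart.

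**Figure D1:**
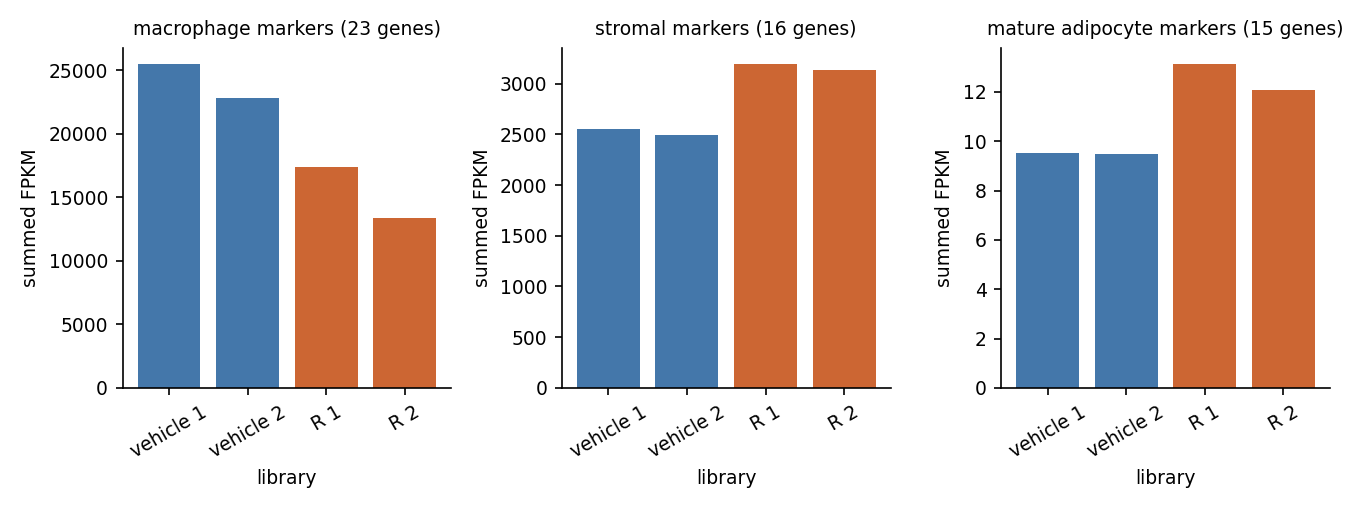
Summed FPKM (y axes, starting at 0) of the macrophage, stromal and mature adipocyte marker lists in each library (x axes; blue, vehicle; orange, R). Macrophage sums were lower in both R libraries, at 13384 and 17386 FPKM, and the other sums were higher, with the adipocyte sums at only 12.1 and 13.1 FPKM.

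The sequences printed here are each the 250 bases before a transcription start. They belong to the 3 genes with the largest differences, G0s2, Plin4 and Cebpa, and to the most downstream of the 3 Pparg starts. All are from RefSeq (GRCm38.p6), which gave 7 of the 10 genes here and 9 start windows. Pparg did not pass the test below, and its printed window is the only 1 of the 9 with matches to a C/EBP site. Whether any window bears on the comparison was not tested. Gene positions below are from GENCODE, which places the starts of G0s2 and Plin4 further upstream. The windows of these genes therefore reach into the gene as placed there. Capitals mark matches, on either strand, to TTGCNNAA (the core of a C/EBP site), AGGTCA (a nuclear receptor half-site, as PPAR gamma with its partner RXR binds in pairs), TTCNNNGAA (a STAT site), TATAAA or CCAAT. Each is written 5′ to 3′ on the strand of its gene.
G0s2, chr1:193273189-193273438, minus strand: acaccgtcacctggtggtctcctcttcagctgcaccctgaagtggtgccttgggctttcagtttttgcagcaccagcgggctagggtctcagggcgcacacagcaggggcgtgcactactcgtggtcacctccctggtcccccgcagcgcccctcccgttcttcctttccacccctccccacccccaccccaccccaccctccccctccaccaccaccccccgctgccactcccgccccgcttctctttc
Plin4, chr17:56109783-56110032, minus strand: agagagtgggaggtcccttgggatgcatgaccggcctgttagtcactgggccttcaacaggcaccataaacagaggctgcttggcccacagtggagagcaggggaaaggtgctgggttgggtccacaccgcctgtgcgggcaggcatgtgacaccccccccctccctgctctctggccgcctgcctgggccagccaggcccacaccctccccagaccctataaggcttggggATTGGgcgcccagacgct
Cebpa, chr7:35119043-35119292, plus strand: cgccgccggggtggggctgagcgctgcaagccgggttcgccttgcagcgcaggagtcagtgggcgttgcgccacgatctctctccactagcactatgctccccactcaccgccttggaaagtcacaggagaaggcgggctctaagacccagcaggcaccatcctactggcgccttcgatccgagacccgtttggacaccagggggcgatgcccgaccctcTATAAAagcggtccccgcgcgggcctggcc
Pparg, most downstream start, chr6:115421816-115422065, plus strand: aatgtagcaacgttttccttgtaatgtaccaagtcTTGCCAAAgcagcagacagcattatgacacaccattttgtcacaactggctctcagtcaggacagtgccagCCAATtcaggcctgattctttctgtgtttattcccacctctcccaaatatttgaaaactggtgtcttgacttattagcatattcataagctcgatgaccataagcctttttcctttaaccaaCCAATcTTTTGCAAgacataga

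The G0s2 window held 0 matches to the 5 motifs. The Plin4 window held 1 CCAAT match, on the opposite strand and beginning 18 bases before the RefSeq start, which is inside the gene as GENCODE places it. The Cebpa window held TATAAA beginning 30 bases before the start. The Pparg window held 2 C/EBP matches, TTGCCAAA and TTTTGCAA, which began 215 and 16 bases before the start, and 2 CCAAT matches. The other 8 of the 9 windows held 0 C/EBP matches. AGGTCA was found in 3 of the 9, which were those of Plin2 and of the other two Pparg starts, and the STAT motif in 0. Of 32851 RefSeq windows of 250 bases, 9.56% held TTGCNNAA, 14.02% AGGTCA, 7.02% TTCNNNGAA, 12.4% TATAAA and 33.9% CCAAT. A match describes letters only, and the values below are sums over whole genes that do not separate the Pparg starts.

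R and vehicle libraries were compared to find which of these genes differed in level after exposure to R. Among the 10 genes G0s2, an inhibitor of the lipase ATGL, rose in R, with a mean 2.57-fold that of vehicle. Plin4, a perilipin of the droplet coat, and Cebpa, a regulator of the mature fat cell, were 1.87-fold and 1.64-fold higher in mean level without passing the test. Cebpb and Cebpd, the early C/EBP genes, had the same mean level in both groups to within 1%. In limma with Benjamini-Hochberg adjustment over all tested genes, 1 of the 10 rose and 0 fell at an adjusted p under 0.05. Of all tested genes 0.345% (42) rose and 1.37% (167) fell, or 1.72% in either direction.

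An unadjusted p under 0.05 was found for 3 of the 10, where the background was 16%. R and vehicle values were fully apart for 6 of the 10, with R higher in 4 and lower in 2. Across all tested genes this held for 47.9%, and for 22.7% with R higher, so the share of 6 in 10 is near the background. The median log2 fold change of the 10 genes was 0.07, against 0.00 for all tested genes (8.3e-05). Fold changes were taken on log2(FPKM + 1), and for low genes this scale gives a smaller change than FPKM itself does. Rescaling each library to TPM, so that all sum alike, moved the median of all genes to 0.13 and the share of calls that were lower from 79.9% to 68.1%, at 58 higher and 124 lower. Leaving out R replicate 1 gave 312 higher and 665 lower genes, and leaving out R replicate 2 gave 438 and 410. For vehicle the counts became 96 and 193 when replicate 1 was left out and 150 and 259 when replicate 2 was.

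**Figure D2:**
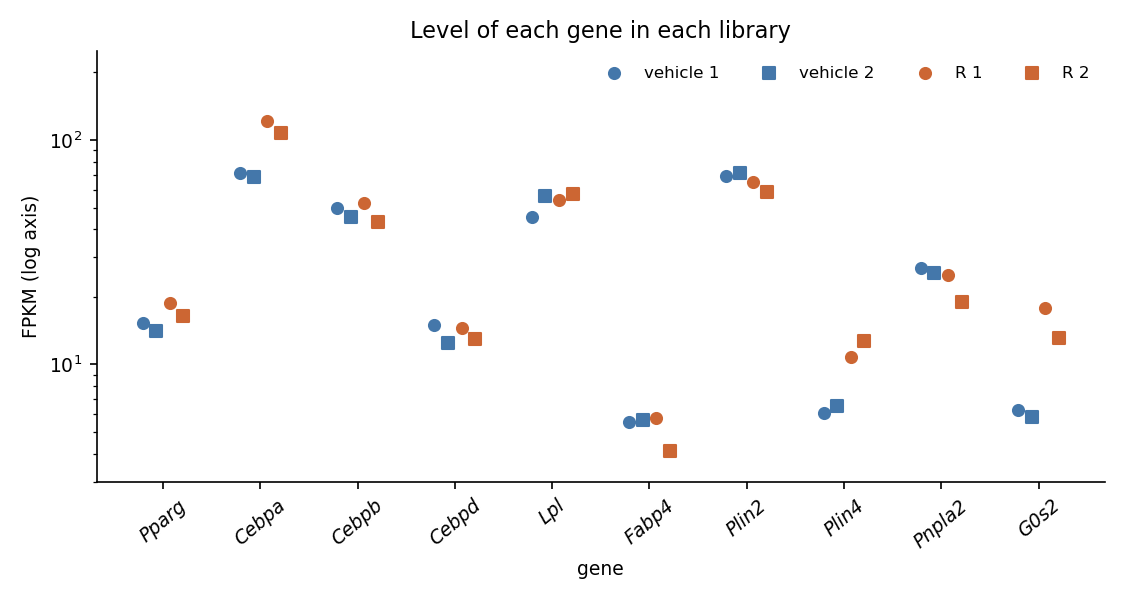
FPKM (log y axis) of the 10 genes (x axis) in each library (blue, vehicle; orange, R; circles, replicate 1; squares, replicate 2). The R points stand clear above the vehicle points for Cebpa, Plin4 and G0s2, such as 17.9 and 13.1 against 6.25 and 5.82 FPKM for G0s2.

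**Figure D3:**
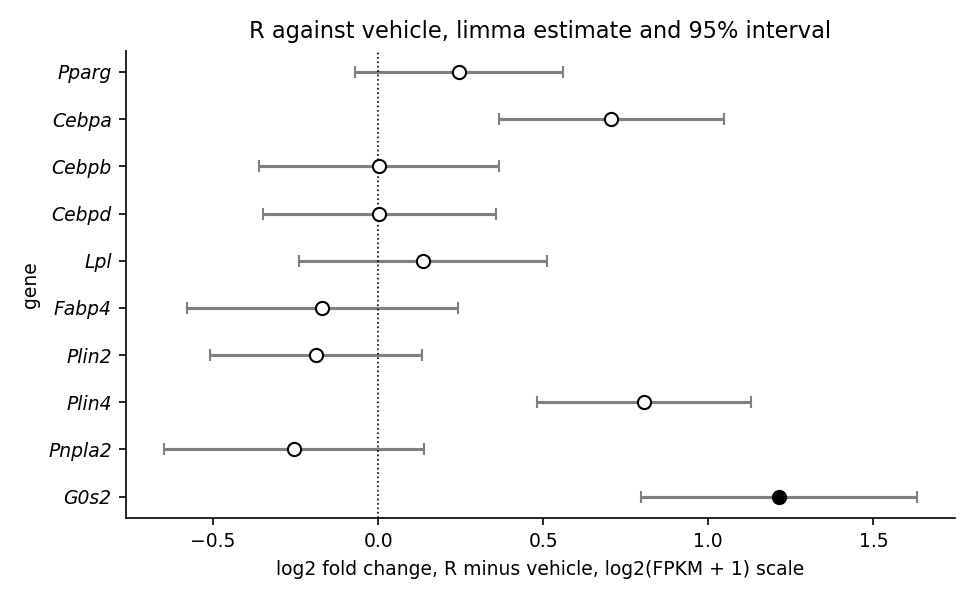
limma's log2 fold change of R minus vehicle (x axis) with its 95% interval for each of the 10 genes (y axis); the filled point passed at an adjusted p under 0.05 and open points did not. The intervals of Cebpa, Plin4 and G0s2 lie above 0, with lower ends at 0.36, 0.48 and 0.80.

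Pparg encodes PPAR gamma, the nuclear receptor without which fat cells do not form. It was at 18.7 and 16.5 FPKM in R replicates 1 and 2 and at 15.3 and 14.1 FPKM in vehicle replicates 1 and 2. Both R libraries were above both vehicle libraries, by a margin smaller than the gap between the R libraries. On the log2 scale the difference was 0.24 (SE 0.128; limma, Benjamini-Hochberg adjusted p = 0.421), with a 95% interval from -0.07 to 0.56. Pparg spans chr6:115360951-115490399 on the plus strand and was covered by 747 to 1066 recovered reads per library.

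Cebpa encodes C/EBP alpha, which works with PPAR gamma in the mature fat cell and also acts in myeloid cells. It was the most abundant of the 10 genes, at 122 and 108 FPKM in R and 71.6 and 68.1 FPKM in vehicle, and stood at the 95.9th percentile of tested genes. The groups did not overlap, and the difference between their means, 115 ± 10.2 against 69.9 ± 2.46 FPKM (SD, n = 2 each), was larger than the spread within either. The log2 fold change was 0.71 (SE 0.138), with a 95% interval from 0.36 to 1.05, and did not pass after adjustment (limma, Benjamini-Hochberg adjusted p = 0.0794; unadjusted p = 0.00241). Of the 13 alternatives that used no replicate block, Cebpa passed in 6, including the TPM scale (adjusted p = 0.028) and voom on recovered reads (adjusted p = 0.0372). On the TPM scale its log2 fold change was 0.84, but that scale also moved the median of all genes to 0.13. Adjusted p over these 13, all by limma with Benjamini-Hochberg adjustment, lay between 0.0182 and 0.619. With 1 library left out the log2 fold change of Cebpa lay between 0.62 and 0.80. Of its 6 passes 2 were fits without an R library, where more genes were called in general. It did not pass without a vehicle library.

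Cebpb encodes C/EBP beta, an early factor of fat cell formation that also acts in inflammatory gene expression. It was at 52.4 and 43.3 FPKM in R and 49.5 and 45.6 FPKM in vehicle, so that the vehicle values lay between the R values. Cebpd, which encodes C/EBP delta, was at 14.5 and 12.9 FPKM in R and at 15.01 and 12.4 FPKM in vehicle, and the groups overlapped. The 95% intervals of their log2 fold changes were -0.36 to 0.36 for Cebpb and -0.35 to 0.36 for Cebpd, so smaller changes remain possible. These intervals are not adjusted for the number of genes and do not give the smallest change the test would call. Cebpa, with a similar SE, was not called at a log2 fold change of 0.71. Exons of Cebpb share 312 of 1504 bases with Tmem189 and those of Cebpd 562 of 3746 with Spidr, both on the opposite strand. Cebpa shares 51 of 2636 exon bases with the antisense gene Gm45091, and Plin4 shares 17 of 5777 with Hdgfl2. Whether the counting used strand is not given in the sources used here, and without strand reads in these bases cannot be told apart.

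Lpl encodes lipoprotein lipase, which frees fatty acids from lipoproteins outside the cell. It was at 53.8 and 57.3 FPKM in R and 45.2 and 56.3 FPKM in vehicle. Vehicle replicate 1 was the low library, and the groups overlapped. Its log2 fold change was 0.14, with a 95% interval from -0.24 to 0.51 (limma, Benjamini-Hochberg adjusted p = 0.726). Fabp4, the fatty acid carrier of fat cells and of macrophages, was the lowest of the 10 at 5.76 and 4.101 FPKM in R and 5.54 and 5.66 FPKM in vehicle. R replicate 1 was above both vehicle libraries and R replicate 2 below them. Its log2 fold change was -0.17, with a 95% interval from -0.58 to 0.24 (limma, Benjamini-Hochberg adjusted p = 0.687).

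Plin2 encodes perilipin 2, the droplet coat protein found in most cell types. It was at 64.7 and 58.4 FPKM in R and 69.4 and 71.1 FPKM in vehicle, lower in both R libraries. On the log2 scale R minus vehicle was -0.19, with a 95% interval from -0.51 to 0.13 (limma, Benjamini-Hochberg adjusted p = 0.549). Plin4 encodes perilipin 4, a coat protein best known from fat cells, and is at chr17:56100591-56109803 on the minus strand. It was at 10.8 and 12.7 FPKM in R and 6.05 and 6.502 FPKM in vehicle, from 1206 and 1326 recovered reads against 617 and 674. The groups did not overlap, and their means were 11.8 ± 1.32 and 6.28 ± 0.316 FPKM (SD, n = 2 each). The log2 fold change was 0.81 (SE 0.131), with a 95% interval from 0.48 to 1.13, just short of the threshold (limma, Benjamini-Hochberg adjusted p = 0.0516). Plin4 passed in 5 of those 13 alternatives, over which limma's adjusted p lay between 0.0197 and 0.1997. With 1 library left out its log2 fold change lay between 0.70 and 0.91. Of its 5 passes 2 were fits without an R library, where more genes were called in general. It did not pass without a vehicle library.

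The perilipin family as a whole was uneven in level. Plin3, a perilipin found in most cells, was at 28.3 and 27.6 FPKM in R and 25.3 and 26.7 FPKM in vehicle (limma, Benjamini-Hochberg adjusted p = 0.7398). Plin1, the perilipin typical of fat cells, was at 0.412 and 0.404 FPKM in R and at 0.134 and 0.0599 FPKM in vehicle. These values rest on 37 and 34 reads in R and 11 and 5 reads in vehicle, and the gene was below the filter and not tested. Plin5, the perilipin of oxidative tissues, was listed at 0 in all 4 libraries. Plin1, Plin3 and Plin5 are named here after their values were seen.

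Pnpla2 encodes ATGL, the lipase that takes the first fatty acid from stored triglyceride. It was at 24.9 and 18.96 FPKM in R and 26.8 and 25.5 FPKM in vehicle. Both R libraries were below vehicle, and R replicate 2 more so than R replicate 1. For R against vehicle the log2 fold change was -0.26, with a 95% interval from -0.65 to 0.14 (limma, Benjamini-Hochberg adjusted p = 0.506). Without R replicate 1 it was -0.44 and without R replicate 2 it was -0.07.

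G0s2 encodes a small protein that binds ATGL and blocks it, and lies at chr1:193272161-193273217 on the minus strand. It was at 17.9 and 13.1 FPKM in R and 6.25 and 5.82 FPKM in vehicle. Both R libraries were at over double the level of either vehicle library. The group means were 15.5 ± 3.42 and 6.04 ± 0.301 FPKM (SD, n = 2 each). The log2 fold change was 1.21 (SE 0.17; 95% interval 0.80 to 1.63; limma, Benjamini-Hochberg adjusted p = 0.0337). With 871 exon bases it was the shortest of the 10 genes, and its values rest on 301 and 206 reads in R and 96 and 91 in vehicle. Counting error alone is 10.5% in the library with the fewest. The call was lost without a filter on low values, where limma called 0 of 24958 genes (adjusted p = 0.188). G0s2 passed in the other 12 of those 13 alternatives, and its log2 fold change over the 13 lay between 1.001 and 1.43. The 4 fits that each left out 1 library were among the 12, and each called more genes in general than the main fit.

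R replicate 2 was below R replicate 1 in 8 of the 10 genes. The other 2 were Plin4 and Lpl, which have the longest exons, at 5777 and 10478 bases, and their R 2 to R 1 ratios were 1.17 and 1.06. G0s2 had a ratio of 0.73, close to the median of 0.775 for genes under 2 kb, and Cebpb, at 1504 bases, had 0.826. Exon length did not order all the ratios. Fabp4, at 4489 bases, had the lowest, 0.712, and Pnpla2, at 3020 bases, had 0.762. The median for genes of 2 to 5 kb was 0.923, and Pparg, Cebpa, Cebpd and Plin2, also of that length, had 0.882 to 0.903. With the length trend of each library removed, an alternative chosen after the data were seen, the log2 fold changes of G0s2, Plin4 and Cebpa were 1.27, 0.80 and 0.72. All 3 then passed by limma (Benjamini-Hochberg adjusted p of 0.00604, 0.0197 and 0.0182 in that order). That fit called more genes in general, 223 higher and 349 lower of 12173, against 42 and 167 in the main fit. In the main fit macrophage markers were lower, at a median log2 fold change of -0.53. For 9 of 16 stromal markers R values were above both vehicle values, where this held for 22.7% of tested genes. The 1 stromal marker called, Ly6a (Sca-1), fell, at a log2 fold change of -1.71 (limma, Benjamini-Hochberg adjusted p = 0.0113). The part of these differences in the values of the 10 genes was not tested.

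Ratios of 2 genes within a library do not depend on how the library was scaled. The ratio of G0s2, the inhibitor, to Pnpla2, the lipase it blocks, was 0.719 and 0.689 in R and 0.233 and 0.228 in vehicle, a 3.05-fold higher mean in R. R replicate 2, which was lower than R replicate 1 in both genes, had nearly the same ratio. Plin4 to Plin2 was 0.167 and 0.217 in R and 0.0873 and 0.0915 in vehicle, 2.15-fold higher in R. Of the summed FPKM of Cebpa, Cebpb and Cebpd, Cebpa made up 64.6 and 65.7% in R and 52.6 and 54.03% in vehicle. The Cebpa to Pparg ratio was 6.52 in both R libraries and 4.69 and 4.83 in vehicle. The numerators, G0s2, Plin4 and Cebpa, were the genes with the largest differences among the 10, so these ratios largely restate their values. In each of these 4 quantities the groups were further apart than the libraries within them. An exact permutation test over the 4 libraries (two-sided) gave p = 0.333 for each, the smallest value this design allows. The groups overlapped in the fifth quantity compared, the share of Lpl in the summed FPKM of the 10 genes, at 13.96 and 16.6% in R and 14.6 and 18.09% in vehicle (exact permutation p = 0.667). RNA ratios do not measure the amounts or the activity of the proteins.

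**Figure D4:**
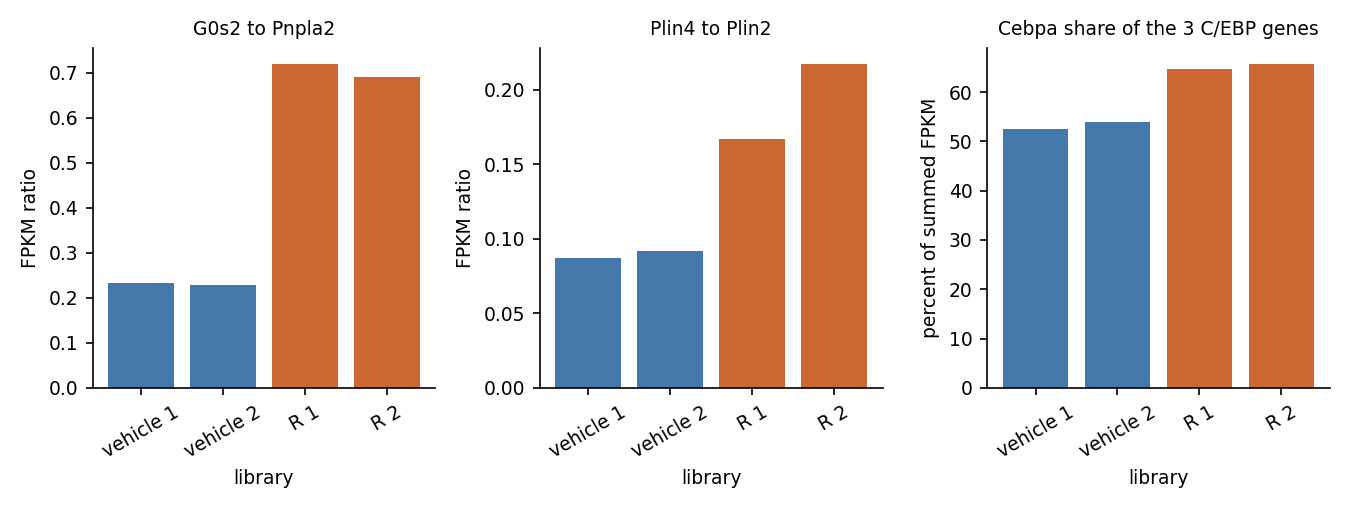
Ratio of G0s2 to Pnpla2, ratio of Plin4 to Plin2 and share of Cebpa in the summed FPKM of Cebpa, Cebpb and Cebpd (y axes, starting at 0) in each library (x axes; blue, vehicle; orange, R). All 3 quantities were higher in both R libraries, as in the G0s2 to Pnpla2 ratio of 0.719 and 0.689 against 0.233 and 0.228.

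The wider pathway was read from 7 lists with 99 further genes, of which 73 were tested. In these 0 rose and 1 fell, with 43 log2 fold changes above 0 and 30 below and a median of 0.05. An unadjusted p under 0.05 was found for 11 of the 73, near the background of 16%. The gene that fell was Fabp5, a fatty acid carrier related to Fabp4 that is found in skin, fat and macrophages. It was at 45.1 and 33.2 FPKM in R and at 93.04 and 95.7 FPKM in vehicle, with no overlap. The log2 fold change was -1.26 (SE 0.176; limma, Benjamini-Hochberg adjusted p = 0.0335), where that of Fabp4 was -0.17. The difference between the 2 carriers was not tested. Fabp5 lost its call without a filter on low values (limma, adjusted p = 0.181) and passed in the other 12 of 13 alternatives. Its log2 fold change over the 13 lay between -1.48 and -1.05.

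Among the list of other adipogenic transcription factors and cofactors, 15 of 20 genes were tested and 0 were called, with 13 log2 fold changes above 0 and a median of 0.17. The 2 with the smallest p were Klf15, a Krüppel-like factor of late fat cell formation, and Klf4, one of its early stages. Klf15 was at 1.88 and 1.84 FPKM in R and 0.955 and 0.899 FPKM in vehicle (limma, Benjamini-Hochberg adjusted p = 0.135). Its vehicle mean, 0.927 FPKM, was below the filter, which it reached only through its R values. Klf4 was at 19.4 and 20.8 FPKM in R and 14.9 and 17.2 FPKM in vehicle (limma, Benjamini-Hochberg adjusted p = 0.325). Of 14 factors that restrain adipogenesis 10 were tested and 0 were called, with 7 log2 fold changes above 0 and a median of 0.20. Hes1, a Notch target, had a log2 fold change of 0.60 and Sox9, a cartilage factor, of 0.67 (limma, Benjamini-Hochberg adjusted p of 0.0877 and 0.0926). With 1 library left out the log2 fold change ran from 0.53 to 0.68 for Hes1 and from 0.54 to 0.79 for Sox9. The fits without an R library called more genes in general, and Hes1 passed in both and Sox9 in 1. Without a vehicle library neither passed. The medians of both lists were above that of all genes.

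Of 15 other lipid droplet proteins 8 were tested and 0 were called, with a median log2 fold change of -0.13. Those with the smallest p were Hsd17b11, a droplet-bound dehydrogenase, at a log2 fold change of -0.39, and Fitm2, which acts in droplet formation, at 0.21 (limma, Benjamini-Hochberg adjusted p of 0.233 and 0.485). Of 8 genes of lipolysis 5 were tested and 0 were called. Lipe, the hormone-sensitive lipase that acts after ATGL, was at 2.51 and 2.17 FPKM in R and 3.53 and 3.46 FPKM in vehicle (limma, Benjamini-Hochberg adjusted p = 0.201). Lipa, the acid lipase of lysosomes, was at 165 and 189 FPKM in R and 228 and 238 FPKM in vehicle (limma, Benjamini-Hochberg adjusted p = 0.288). Abhd5, the coactivator of ATGL, was at 5.17 and 5.35 FPKM in R and at 4.79 and 4.83 FPKM in vehicle (limma, Benjamini-Hochberg adjusted p = 0.717). It was chosen after its values were seen, as it acts on the same lipase as G0s2.

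Of 18 genes of triglyceride synthesis 14 were tested and 0 were called, with a median log2 fold change of 0.01. Lpin3, a phosphatidate phosphatase, and Acsl1, which activates fatty acids, had the smallest p, at log2 fold changes of 0.40 and -0.38 (limma, Benjamini-Hochberg adjusted p of 0.246 and 0.339). The fatty acid uptake and carrier list, which holds Fabp5, had 12 of 14 genes tested and a median of -0.02. Of 11 PPAR target genes of fatty acid oxidation 10 were tested and 0 were called, with a median of -0.05. Ucp2, a mitochondrial carrier, was at -0.45 and Pdk4, which limits glucose oxidation, at 0.39 on the log2 scale (limma, Benjamini-Hochberg adjusted p of 0.268 and 0.335). With 1 library left out the log2 fold change ran from -0.63 to -0.27 for Ucp2 and from 0.18 to 0.59 for Pdk4. Of these fits, both genes passed only in the one without R replicate 1, which called more genes in general than the main fit.

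**Figure D5:**
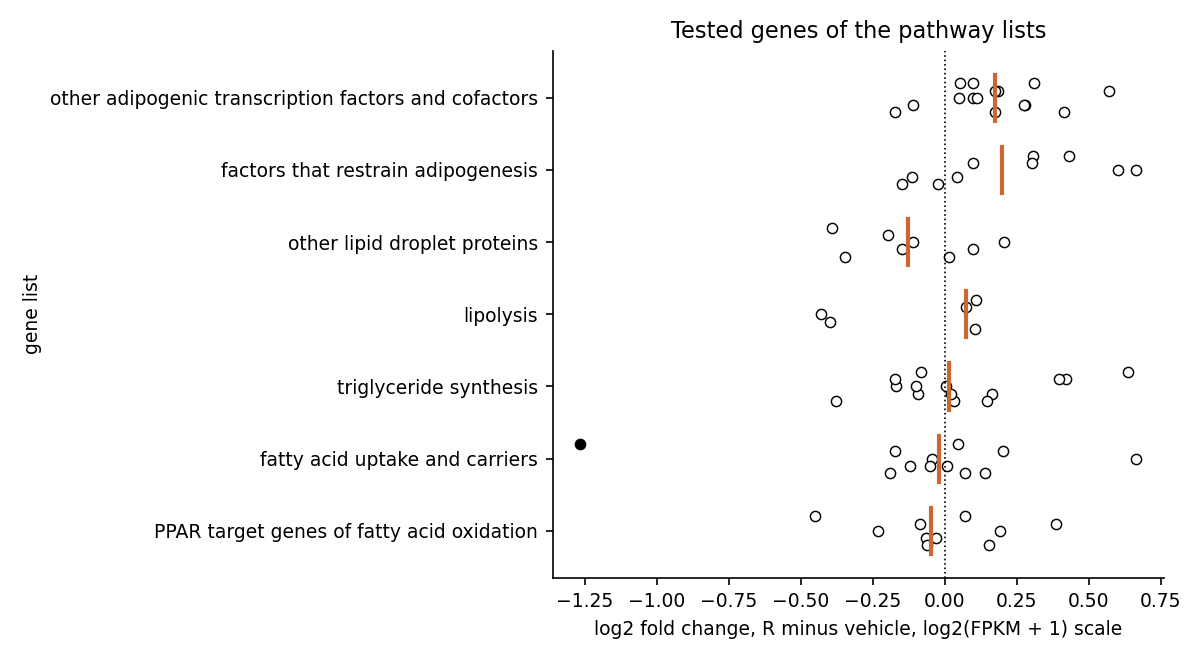
log2 fold change of R minus vehicle (x axis) for each tested gene of the 7 pathway lists (y axis), with the list median as an orange bar; filled points passed at an adjusted p under 0.05. The single filled point is Fabp5 at -1.26, and the list medians lie between -0.13 and 0.20.

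Transcripts of mature fat cells were at low levels in all libraries. Of 15 markers 2 were tested, Lipe and Adipoq, and Lep and Pck1 were listed at 0 throughout. The list summed to 13.1 and 12.1 FPKM in R and to 9.51 and 9.498 FPKM in vehicle. Adipoq, which encodes the fat cell hormone adiponectin, was at 7.28 and 6.604 FPKM in R and 4.56 and 4.88 FPKM in vehicle, on 194 and 165 reads against 111 and 121. Its groups did not overlap, and its log2 fold change was 0.47 (limma, Benjamini-Hochberg adjusted p = 0.144). The groups were also apart, with R higher, in Plin1, Cidec, Adrb3, Aqp7 and Car3, which all lay below the filter, as did 13 of the 15 markers. With Adipoq, 6 of the 15 were apart with R higher, and 1 was apart with R lower. Lipe, the other tested marker, was apart with R lower, at a log2 fold change of -0.43 (unadjusted p = 0.0184 in limma). Of the 12782 genes above 0 with a mean under 1 FPKM, 14.1% were apart with R higher, and of all tested genes 22.7% were. No background matched to the read counts of these markers was computed. Adrb3, the beta-3 adrenergic receptor of fat cells, was at 1.52 and 1.16 FPKM in R and at 0.621 and 0.38 FPKM in vehicle, on 99 and 71 reads against 37 and 23. Cidec, a droplet fusion protein, had 5 and 7 reads in R and 1 and 0 in vehicle.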

How the data were processed

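RNA sequencing of 4 libraries was analysed from 1 deposited table that gives FPKM per gene and library, a unit named per the file headers. Per the submitters' processing notes, the genome builds were GRCm38 and mm10 and edgeR 3.18.1 is listed among the tools, with no role. The aligner, the counter and the annotation are not stated in those notes or labels. Its 10 empty columns were not used. Symbols, positions (1-based) and exon lengths came from GENCODE M21 (GRCm38), which matched 54495 of the 54532 identifiers. FPKM times exon length gave whole reads, within 0.02, for 96.3 to 96.4% of values above 0, and reads were kept for the 24113 genes whole in all libraries. The divisor behind the FPKM values, relative to recovered reads, was 1.004 and 1.029 in R replicates 1 and 2 and 0.981 and 0.986 in vehicle. TMM factors computed from those reads were 1.004 and 1.029 in R and 0.982 and 0.985 in vehicle, in the same order. The deposited values thus already carried a library scaling close to TMM. On the TPM scale each library is divided by its own sum, which removes that scaling.

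The groups were fitted on log2(FPKM + 1) with limma 3.58.1 (R software 4.3.3). This covered 12176 genes whose mean reached 1 FPKM, with a variance trend, and adjustment was by Benjamini-Hochberg over all of them. A gene is called at an adjusted p under 0.05. Residual degrees of freedom were 2 and prior ones 3.83. The fit was also run on simulated counts, which held no length trend such as that between the R libraries. That run does not show how the fit performs on these data. The 10 genes and the lists were chosen with earlier results of these data known. Besides the 10 genes, the text names the called genes of each pathway list or, with none, the 2 with the smallest p. Alternatives were pseudocounts of 0.1 and 0.5, no filter and a filter at 5 FPKM, TPM, quantile normalization, voom (with TMM) on recovered reads, no variance trend, a replicate block, each library left out, and, added after seeing the data, removal of length trends. With fits of 3 libraries, a lone library is assumed to vary like the other group.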

Additional observations from a re-analysis of the deposited data

How the results depend on the processing

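The counts of all genes called higher and lower, 42 and 167, moved over 1.5 times in several alternatives. Without a filter limma called 0 and 0 of 24958 genes, with 2767 at an unadjusted p under 0.05, whereas voom on recovered reads called 80 higher. With length trends removed 223 were higher and 349 lower, and with 1 library left out 96 to 438 were higher and 193 to 665 lower. The replicate number as a block gave 891 higher and 1009 lower. The numbers pair the samples only by name. Across the tested genes the difference between the R replicates and that between the vehicle replicates had a correlation of 0.353. The cause of these shifts was not tested.

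Of the 10 genes, G0s2 alone was called. The count was 0 without a filter, 2 with a filter at 5 FPKM (Plin4 added), 2 on the TPM scale and 2 after quantile normalization (Cebpa added in both). It was 3 (both added) with voom, with length trends removed and with the replicate block, and 1 to 3 with 1 library left out. The count of genes that fell was 0 in each of these. With 1 library left out the log2 fold change ran from -0.13 to 0.14 for Cebpb, from -0.13 to 0.13 for Cebpd, from -0.019 to 0.29 for Lpl and from -0.37 to 0.034 for Fabp4, so their sign is not settled. The other 6 genes kept their sign in every alternative run. Depth limits G0s2 most, with counting error of 10.5% in its smallest library.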
